A study of Mus musculus with 435 samples.

Results

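Livers of C57 and A/J mice, a pair of inbred laboratory strains, were compared at matched weeks of a high-fat diet. The samples were chosen by their labelled strain, diet and week: 178 arrays carry a high-fat label for 1 of these strains at weeks 1, 3, 4, 5, 6, 7, 9, 10 or 11. An array was dropped if its log2 ratios correlated with the median array of the series at a Pearson r below 0.15, which removed 1 A/J array of week 5 (r = 0.14). The lowest r kept was 0.37. The second copy of each of 2 identical A/J columns, at weeks 1 and 5, was left out as well. That left 175 of the 435 arrays of the series, 88 from C57 and 87 from A/J, with 8 to 10 arrays in each of the 18 groups of strain and week.

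Each array set Cy5-labelled total liver RNA from the strain against a Cy3-labelled reference, and the same reference was used for both strains. The reference was RNA pooled from 10 tissues of C57 mice: liver, kidney, heart, lung, testes, skeletal muscle, brain, hypothalamus, and white and brown adipose tissue. The labels name the strains only as C57 and AJ, and give neither the substrain, the sex, the age nor the composition of the diets. They also do not say which arrays share a mouse, so the week was taken as the unit of replication: arrays of a group were averaged to 1 mean log2 ratio, and the 9 weekly means of C57 were compared with the 9 of A/J with the week as a block. Every array was centred on its median over the tested probes, so a log2 ratio of 0 is that of the median tested probe and not equality with the reference. Positive differences below mean a higher ratio in C57. The p-values then measure the spread of the strain difference between weeks, which may be partly technical.

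C57 mice are known for gaining weight and becoming insulin resistant on high-fat food, while A/J mice are known to resist this. The liver turns surplus fatty acids into triglyceride, oxidises them in mitochondria and peroxisomes, and secretes most plasma proteins through the endoplasmic reticulum. Mouse liver also secretes major urinary proteins, small lipocalins that bind pheromones and are made at higher levels in males.

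An array measured between 4803 and 14771 of 17280 probes in A/J (median 11476) and between 3047 and 14671 in C57 (median 11322.5). The C57 arrays of week 6 had the lowest group median, 7764 probes. Only ratios are given, so the brightness of the spots is unknown. The weekly strain differences correlated across the 8090 tested probes at r = 0.43 between weeks 1 and 3 and at r = 0.42 between weeks 5 and 6, and the other 34 pairs of weeks lay between 0.018 and 0.30. Probes are not independent replicates, so these correlations are a description of how much of the pattern a pair of weeks shared. Hybridisation dates were not used here, so whether neighbouring weeks shared a batch was not tested.

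Of the 8090 probes tested, which stand for 6842 named genes and further probes without a symbol, 270 differed between the strains at a Benjamini-Hochberg adjusted p under 0.05 in limma, or 3.34%. A higher ratio in C57 was found for 196 of these (2.42% of the probes tested) and a lower ratio for 74 (0.915%). With quantile normalization of the arrays in place of median centring, 304 probes passed, 185 higher and 119 lower, so the share that was higher moved from 72.6% to 60.9%. At an unadjusted p under 0.05 there were 1336 probes, or 16.5%, and among the 6842 genes, each by 1 probe, 16.5% as well. By that count of genes 231 passed the adjusted threshold (3.38%), 165 higher (2.41%) and 66 lower (0.965%), and these shares are the background for the gene lists below. The median difference of all tested probes was 0.004 (log2). Among the probes past the threshold the difference ran in size from 0.27 to 2.06 with a median of 0.50, and 24 probes differed by at least 1, 21 of them higher in C57. The sign of the difference was the same in 9 of 9 weeks for 194 of the 270 probes and in at least 8 weeks for 265. The probes were called from these same weekly differences, so these counts are descriptions. Complete separation was rare: for 12 of the 8090 probes (0.148%) the 9 weekly means of one strain all lay above those of the other. Without week 7 the count past the threshold was 170 and without week 6 it was 175. In bulk liver RNA, fewer cells of a type and less RNA per cell cannot be told apart, and this holds for every gene below.

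The largest difference belonged to Slc28a3, which encodes a sodium-coupled nucleoside transporter. Its weekly mean log2 ratio ran from −1.45 to 0.26 in A/J (median −0.22) and from 0.55 to 2.11 in C57 (median 1.89), so the weekly means did not overlap. The difference was 2.06 ± 0.23 (SE, n = 9 weeks; 4.16-fold, limma adjusted p = 4.03e-04). It was measured on 129 of the 175 arrays, 58 from A/J and 71 from C57. A tested probe needed a value on 70% of all arrays, and this one reached that only through C57. Of the 71 C57 values 70 lay above the A/J median. The weekly difference was widest at week 6 (3.56) and narrowest at week 10 (0.69). A/J had 5 values at week 6, with an SD of 1.98, and 3 at week 10, where C57 had 4.

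Phlda3, a p53 target that restrains Akt signalling, stood between −0.36 and 1.19 in A/J (median 0.32) and between 1.50 and 2.67 in C57 (median 1.80). The strain difference was 1.47 ± 0.17 (SE, 9 weeks; 2.76-fold, limma adjusted p = 5.14e-04). A/J was near or below 0.2 at weeks 1, 3 and 4 and higher afterwards, whereas the lowest C57 week was 1.50. Amigo1, a neuronal adhesion protein, was flat in A/J, with weekly means from −0.12 to 0.33 (SD 0.15), and ran from 1.09 to 2.36 in C57. The difference was 1.46 ± 0.14 (2.75-fold, limma adjusted p = 2.38e-04).

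Fshb, the beta subunit of follicle-stimulating hormone and a pituitary product, had weekly means from 0.05 to 0.84 in A/J and from 1.03 to 2.45 in C57. The groups did not overlap, and the difference was 1.37 ± 0.12 (limma adjusted p = 2.38e-04). Pias3, a SUMO ligase that inhibits Stat3, averaged −0.02 ± 0.55 (SD, 9 weeks) in A/J and 1.34 ± 0.68 in C57, and its weekly ranges overlapped. Osbpl7, a member of the oxysterol-binding protein family, averaged 0.20 ± 0.34 in A/J and 1.34 ± 0.46 in C57, a difference of 1.14 ± 0.10 (SE). Rae1, which acts in mRNA export and at the mitotic spindle, averaged −0.96 ± 0.75 (SD) in A/J and 0.14 ± 1.00 in C57. Its level differed widely between weeks in both strains, from −0.08 at week 3 to −2.14 at week 11 in A/J and from 1.38 to −1.39 at the same weeks in C57.

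Tbx20, a heart transcription factor, averaged 0.28 ± 0.42 in A/J and 1.49 ± 0.51 in C57 (SD, 9 weeks), a difference of 1.21 ± 0.18 (SE). A second probe of this gene differed by −0.25 ± 0.09 (limma adjusted p = 0.17), so the probes of Tbx20 disagree and its difference is uncertain. Cldn10, a tight-junction claudin, averaged −1.23 ± 0.57 in A/J and −0.17 ± 0.40 in C57 (SD). Its weekly difference was 0.03 at week 3 and 2.26 at week 7, and it was at or under 0.45 at weeks 1, 3 and 4. Eola1 was the lowest-ratio gene of the group, with −2.94 ± 0.66 in A/J and −1.81 ± 0.67 in C57. Its difference was 1.13 ± 0.13 (SE, limma adjusted p = 4.03e-04). Phlda3, Amigo1, Fshb, Pias3, Osbpl7 and Tbx20 also varied with Mup3, described next, between the arrays of a group. Their Pearson r with it ran from 0.58 to 0.78, as given under the other observations. Whether these are separate strain differences was not tested.

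**Figure D1:**
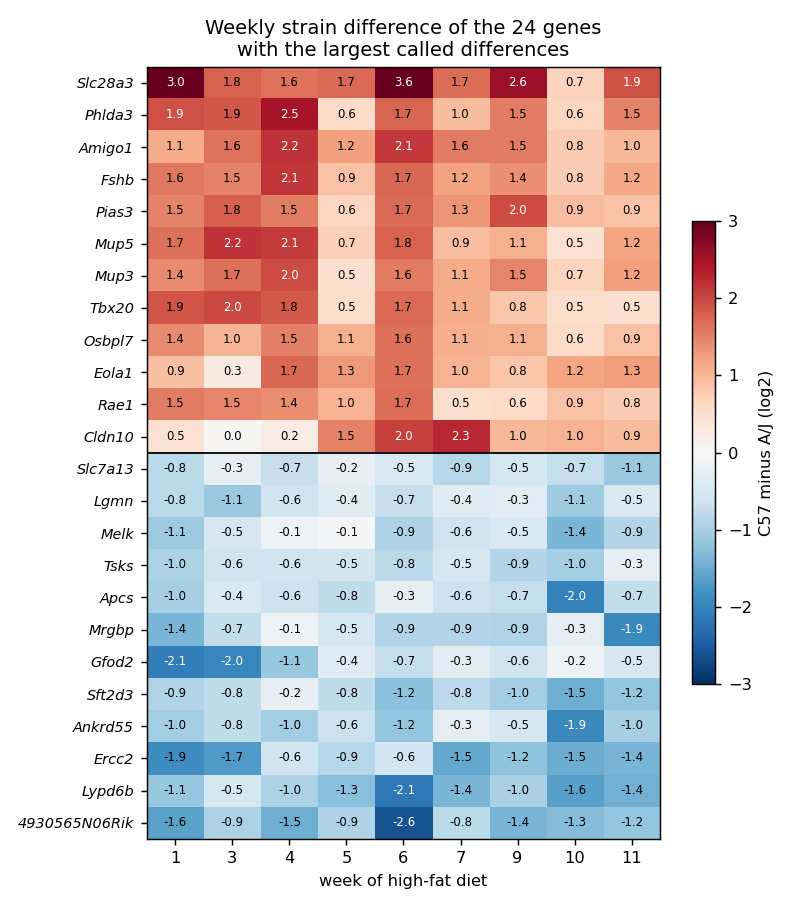
Difference in mean log2 ratio, C57 minus A/J, at each of the 9 weeks (columns) for the 12 genes with the largest higher and the 12 with the largest lower ratios in C57 past the threshold (rows); colour is cut at 3 and −3 and the number in each cell is the difference to 1 decimal. All 24 genes kept 1 sign over the 9 weeks, and the cells of Slc28a3 run from 0.7 at week 10 to 3.6 at week 6. The genes were chosen from these same values, partly for keeping 1 sign in most weeks, so the shared sign is a description.

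The major urinary protein genes and Selenbp2, a selenium-binding protein, were the members of a list of male-biased liver genes that passed the threshold: 3 of 6 tested members were higher in C57, against 2.41% of all genes, and none was lower. With all arrays and week 8 included 1 member could be tested, and it did not pass. The median difference of the 6 was 0.57, against 0.006 over all genes tested. Mup3 ran from −0.03 to 1.15 in A/J (median 0.50) and from 1.58 to 2.72 in C57 (median 1.72), without overlap. The difference was 1.29 ± 0.13 (SE, 9 weeks; 2.44-fold, limma adjusted p = 2.97e-04). Mup5 ran from −0.20 to 1.38 in A/J and from 1.61 to 2.75 in C57, with a difference of 1.34 ± 0.17 (2.53-fold, limma adjusted p = 7.52e-04).

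For both Mup genes the A/J means of weeks 1, 3 and 4 were the 3 lowest of the 9. Major urinary protein genes are near-identical copies, so a probe for one may also read others. Mup3 and Mup5 may therefore not be separate members in the count and median of the male-biased list. Selenbp2 ran from −0.96 to 0.01 in A/J and from −0.15 to 1.20 in C57, a difference of 0.82 ± 0.09 (1.76-fold, limma adjusted p = 4.28e-04). The other tested members were Ugt2b1 (0.32 ± 0.09, adjusted p = 0.088), Hsd3b5 (−0.22 ± 0.07, adjusted p = 0.12) and Nudt7 (0.05 ± 0.07). Among 6 tested female-biased genes limma called none, with 0 at an unadjusted p under 0.05, and the median was −0.08, with Cyp2b10 at −0.29 ± 0.14 (limma adjusted p = 0.33).

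The start of Mup3 is shown because growth hormone acts on male-biased liver genes through Stat5, whose core motif TTCNNNGAA was searched for on both strands. The 250 bases before the start site, from RefSeq on GRCm38.p6, lie at chr4:62087318-62087567 on the minus strand, and no match was found there or in the same window of Selenbp2. Of 32851 promoter windows of this length in the table, 7.02% held the motif. The sequence is in lower case because no motif was found.
Mup3: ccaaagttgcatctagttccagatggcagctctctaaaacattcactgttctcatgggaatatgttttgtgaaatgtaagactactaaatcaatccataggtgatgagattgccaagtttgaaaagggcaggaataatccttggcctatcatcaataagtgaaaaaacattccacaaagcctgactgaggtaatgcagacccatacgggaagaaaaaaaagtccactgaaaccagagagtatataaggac

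Fewer probes had a lower ratio in C57, 74 against 196. The RIKEN transcript 4930565N06Rik ran from 0.42 to 1.63 in A/J (median 0.81) and from −0.98 to 0.28 in C57 (median −0.42). The weekly means did not overlap and the difference was −1.36 ± 0.15 (SE, 9 weeks; 2.56-fold, limma adjusted p = 4.03e-04). Lypd6b, a member of the Ly6 and uPAR domain family, had A/J means between 0.27 and 1.04 and C57 means between −1.11 and −0.08. Its difference was −1.27 ± 0.13 (2.41-fold, limma adjusted p = 2.97e-04), and 0 of its 86 C57 array values lay above the A/J array median of 0.77, the highest being 0.41.

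Ercc2, the XPD helicase of nucleotide excision repair and transcription factor TFIIH, averaged 0.17 ± 0.27 in A/J and −1.08 ± 0.49 in C57 (SD, 9 weeks), a difference of −1.25 ± 0.13 (SE). It had a value on 83 A/J arrays and on 62 C57 arrays, with 4 C57 values at week 4 and 3 at week 6. C57 stood at −0.34 and −0.32 at those weeks and at −0.75 or below at the others. The weekly means overlapped at week 5 of A/J, which stood at −0.48.

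Sft2d3, a protein of retrograde vesicle transport, differed by −0.93 ± 0.11, and Ankrd55, an ankyrin-repeat protein, by −0.93 ± 0.13. Gfod2 averaged 1.32 ± 0.34 in A/J and 0.45 ± 0.83 in C57 (SD). Its weekly difference was −2.08 at week 1 and −0.15 at week 10, and it passed in 6 of the 9 fits that left out a week. Its adjusted p was 0.054 with quantile normalization. Mrgbp, a subunit of the NuA4 histone acetyltransferase, differed by −0.85 ± 0.15, and Melk, a kinase of dividing cells, by −0.67 ± 0.13. Lgmn, the lysosomal protease legumain, differed by −0.64 ± 0.09, Slc7a13, an acidic amino acid transporter, by −0.63 ± 0.09, and Tsks, a substrate of testis-specific kinases, by −0.69 ± 0.08. All of these passed the limma threshold, with adjusted p-values from 4.28e-04 (Sft2d3) to 0.028 (Gfod2). With group medians in place of means the limma adjusted p of Mrgbp was 0.0504, and with all arrays and week 8 included that of Melk was 0.12.

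**Figure D2:**
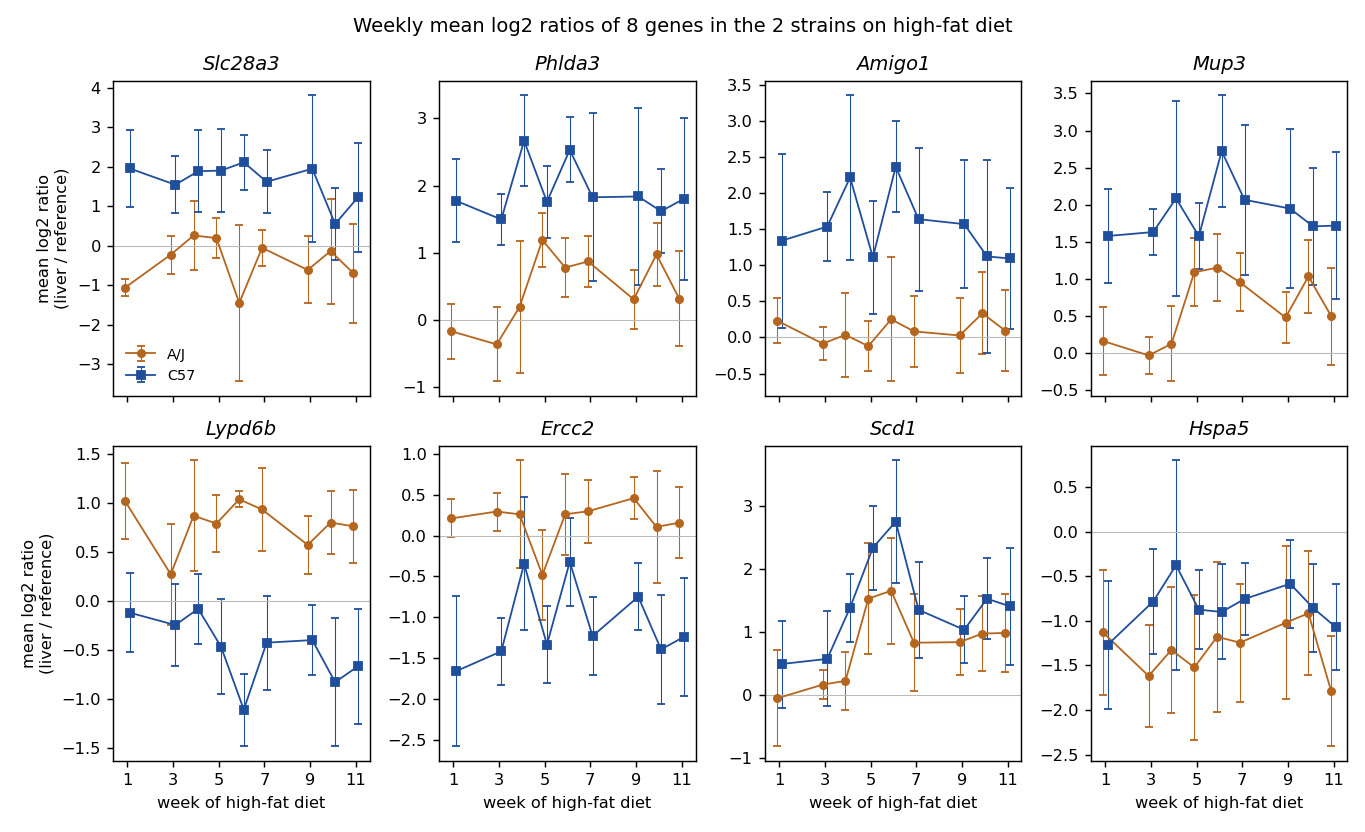
Mean log2 ratio of liver over reference (vertical axis) in A/J (circles) and C57 (squares) against week of high-fat diet (horizontal axis) for 8 genes; bars are the SD between the arrays of a group, which hold at most 10 values. The C57 means of Slc28a3, Phlda3, Amigo1 and Mup3 lie above every A/J mean, those of Lypd6b below, and Ercc2, Scd1 and Hspa5 overlap.

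Of 77 tested genes in 6 lists of lipid metabolism 1 passed the threshold (1.30%, against 3.38% of all genes). The difference between these shares was not tested. Of 16 tested genes of fatty acid and triglyceride synthesis 1 passed, Scd1, the desaturase that makes oleate and palmitoleate. Its A/J means were −0.05, 0.17 and 0.23 at weeks 1, 3 and 4, 1.53 and 1.65 at weeks 5 and 6, and 0.83 to 0.99 at weeks 7 to 11. C57 stood at 0.49 and 0.58 at weeks 1 and 3 and at 1.38 at week 4, where 6 arrays had a value. It reached 2.75 at week 6 and was at 1.41 at week 11. The gap was widest at week 4 (1.16) and narrowest at week 9 (0.20). The difference was 0.63 ± 0.10 (SE, 9 weeks; 1.55-fold, limma adjusted p = 0.0035) and positive in 9 of 9 weeks. With both diets in 1 fit its adjusted p was 0.056.

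The other enzymes of this list did not pass: Fasn, the fatty acid synthase, was at 0.22 ± 0.08 (adjusted p = 0.18), Acly at 0.04 ± 0.08, Acaca at −0.12 ± 0.07 and the diacylglycerol acyltransferase Dgat2 at −0.10 ± 0.08. The median of the 16 was 0.03. Limma called none of 24 tested genes of fatty acid oxidation and ketogenesis, where 4 had an unadjusted p under 0.05. Their median was 0.09. Acaa1a, the peroxisomal thiolase, was at 0.23 ± 0.06 (limma adjusted p = 0.080), Acaa2 at 0.30 ± 0.12, Cpt1a, which admits fatty acids to mitochondria, at 0.22 ± 0.18, and Hadh at −0.21 ± 0.07.

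Limma also called none of 10 tested genes of lipid droplets, uptake and lipolysis (3 at an unadjusted p under 0.05), none of 10 apolipoproteins (3) and none of 14 genes of bile acid and sterol transport (3). Lpl, lipoprotein lipase, was at −0.43 ± 0.15 (limma adjusted p = 0.18), Cd36 at 0.07 ± 0.15, Apoc2 at 0.39 ± 0.10 (adjusted p = 0.066) and Cyp8b1, which sets the cholic acid share of bile acids, at 0.44 ± 0.15 (adjusted p = 0.14). Of 18 cholesterol synthesis genes on the array, 3 could be tested and none passed or had an unadjusted p under 0.05 in limma.

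Of 16 tested genes of glucose metabolism 1 passed, Pfkl, the liver phosphofructokinase, against 3.38% of all genes. It averaged −0.65 ± 0.43 in A/J and 0.01 ± 0.43 in C57 (SD, 9 weeks), a difference of 0.66 ± 0.08 (SE, limma adjusted p = 7.50e-04). A second Pfkl probe stood at −0.16 ± 0.10 (adjusted p = 0.49), so the probes disagree. Pklr was at 0.13 ± 0.09 and Fbp1 at −0.12 ± 0.11.

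Of 25 tested cytochrome P450 genes 1 passed, against 3.38% of all genes. Cyp2c37, an arachidonate hydroxylase, ran from −0.08 to 0.76 in A/J and from 0.37 to 1.33 in C57, a difference of 0.44 ± 0.09 (1.36-fold, limma adjusted p = 0.019) that passed in 8 of 9 fits leaving out a week and stood at adjusted p = 0.078 with group medians. Cyp2c40 was at −0.38 ± 0.10 (adjusted p = 0.055) and Cyp3a11 at 0.04 ± 0.09. Of 35 conjugation and other detoxification genes 2 passed, against 3.38% of all genes. The 2 are glutathione transferases of the alpha class that differed in opposite directions. Gsta3 averaged −0.22 ± 0.64 in A/J and 0.41 ± 0.48 in C57 (SD), a difference of 0.63 ± 0.10 (SE, limma adjusted p = 0.0034). Gsta4, which conjugates lipid peroxidation products, averaged 0.44 ± 0.41 in A/J and 0.16 ± 0.38 in C57, a difference of −0.28 ± 0.06 (limma adjusted p = 0.023) that passed in 6 of 9 fits leaving out a week. With quantile normalization its limma adjusted p was 0.061 and with group medians 0.30. The median of the list was 0.15, with 23 members positive and 12 negative, and 14 of the 35 had an unadjusted p under 0.05, against 16.5% of all genes. Limma called none of 14 oxidative stress genes, 2 of which had an unadjusted p under 0.05, with 11 positive and a median of 0.15.

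Chaperones of the endoplasmic reticulum were represented by 20 tested genes, of which 3 were higher in C57, against 2.41% of all genes, and none lower. With all arrays and week 8 included 8 of them could be tested and 0 passed. The median of the 20 was 0.06. Hspa5, the lumenal Hsp70 chaperone BiP, ran below the array median in both strains, from −1.79 to −0.91 in A/J (median −1.24) and from −1.27 to −0.38 in C57 (median −0.85). The difference was 0.48 ± 0.11 (SE, 9 weeks; 1.39-fold, limma adjusted p = 0.031). It was positive in 8 of 9 weeks, with week 1 at −0.14, and the adjusted p stayed under 0.05 in 3 of the 9 fits that left out a week. With quantile normalization its limma adjusted p was 0.097, and with both diets in 1 fit it was 0.073.

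Dnajb9, a co-chaperone of Hspa5, ran from −1.58 to −0.34 in A/J (median −0.85) and from −0.78 to 0.05 in C57 (median −0.16), a difference of 0.62 ± 0.13 (1.54-fold, limma adjusted p = 0.019) that passed in 7 of 9 fits leaving out a week. Fkbp11, a prolyl isomerase of secretory cells, averaged 1.35 ± 0.54 in A/J and 1.96 ± 0.50 in C57 (SD), a difference of 0.61 ± 0.12 (SE, 8 of 9 weeks positive, limma adjusted p = 0.015). With all arrays and week 8 included the adjusted p of Fkbp11 was 0.15. A second Fkbp11 probe stood at −0.19 ± 0.13 (adjusted p = 0.50), so its probes disagree. Without week 5, and likewise without week 7, 1 of the 20 passed. Other members of the pathway were Hyou1 at −0.16 ± 0.08, Hsp90b1 at 0.06 ± 0.09, Calr at 0.18 ± 0.11, Xbp1 at −0.14 ± 0.20 and Ddit3 at 0.05 ± 0.07.

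The starts of Hspa5 and Dnajb9 are shown because the endoplasmic reticulum stress element, CCAAT and CCACG with 9 bases of any kind between them, is the motif through which Atf6 is known to act on chaperone genes. The windows are the 250 bases before the start site, from RefSeq on GRCm38.p6: chr2:34771840-34772089 on the plus strand for Hspa5 and chr12:44210069-44210318 on the minus strand for Dnajb9. On both strands the search found 1 match in Hspa5, starting 65 bases before the start site and given in capitals, and none in Dnajb9 or in either start window of Fkbp11. The motif was present in 37 of 32851 windows of the table (0.113%). A match describes the letters and does not show that a factor binds.
Hspa5: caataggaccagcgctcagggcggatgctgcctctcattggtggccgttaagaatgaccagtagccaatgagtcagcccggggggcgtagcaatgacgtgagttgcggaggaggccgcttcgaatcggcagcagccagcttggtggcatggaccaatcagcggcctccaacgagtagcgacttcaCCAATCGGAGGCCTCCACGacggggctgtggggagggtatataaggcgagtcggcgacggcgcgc
Dnajb9: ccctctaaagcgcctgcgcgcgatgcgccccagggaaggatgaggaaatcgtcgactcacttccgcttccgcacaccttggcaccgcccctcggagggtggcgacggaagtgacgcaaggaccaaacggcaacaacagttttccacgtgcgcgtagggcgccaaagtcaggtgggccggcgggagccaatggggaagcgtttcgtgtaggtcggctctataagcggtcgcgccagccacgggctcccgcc

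Of 25 tested acute phase and carrier genes 1 was higher in C57 and 3 were lower, against 2.41% and 0.965% of all genes, with a median of −0.006. Limma gave 8 of the 25 an unadjusted p under 0.05, against 16.5% of all genes. Apcs, serum amyloid P, the main acute phase pentraxin of the mouse, ran from −0.39 to 1.21 in A/J (median 0.02) and from −1.39 to −0.26 in C57 (median −0.71). The difference was −0.80 ± 0.14 (SE, 9 weeks; 1.75-fold, limma adjusted p = 0.0075), and week 10, where A/J reached 1.21, had the largest gap. Trf, transferrin, averaged 1.43 ± 0.31 in A/J and 1.02 ± 0.22 in C57 (SD), a difference of −0.41 ± 0.08.

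Alb, albumin, averaged 1.21 ± 0.36 in A/J and 0.82 ± 0.24 in C57 (SD). The difference was −0.39 ± 0.09 (SE, limma adjusted p = 0.040), and it passed in 2 of the 9 fits that left out a week. Ahsg, fetuin A, averaged 0.15 ± 0.44 in A/J and 0.69 ± 0.43 in C57, a difference of 0.54 ± 0.12 (limma adjusted p = 0.024) that passed in 5 of those 9 fits. With all arrays and week 8 included the limma adjusted p of Alb was 0.32 and that of Ahsg 0.41. With no filter but 1 array in each group Alb, Ahsg, C1ra, Oat, Sdha, Gsta4, Gfod2 and Hspa5 did not pass, at adjusted p-values from 0.055 (Ahsg) to 0.10 (Alb). The count of acute phase genes past the threshold was 2 in 4 of the fits that left out a week (weeks 5, 6, 7 and 11). Saa2 was at 0.07 ± 0.07, Hp at −0.01 ± 0.09 and Crp at 0.16 ± 0.06 (limma adjusted p = 0.22).

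Of 23 tested genes of complement, coagulation and serpins 2 passed, against 3.38% of all genes. These were Ahsg, also counted among the acute phase and carrier genes, and C1ra, a protease of the classical complement pathway. C1ra ran from −0.19 to 1.42 in A/J and from 0.52 to 1.83 in C57, a difference of 0.44 ± 0.09 (limma adjusted p = 0.022) that passed in 5 of 9 fits leaving out a week. Week 5 alone was negative. The list's median was 0.02, and 7 of its 23 genes had an unadjusted p under 0.05 in limma, against 16.5% of all genes.

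Energy and amino acid metabolism had few genes past the threshold. Of 55 tested subunits of the respiratory chain or the ATP synthase 1 was higher and 2 were lower in C57. The shares over all genes were 2.41% and 0.965%, and the median of the 55 was 0.06. Limma gave 8 of them an unadjusted p under 0.05. Ndufa6, a complex I subunit, averaged −1.18 ± 0.69 in A/J and −0.56 ± 0.56 in C57 (SD), a difference of 0.63 ± 0.10 (SE, limma adjusted p = 0.0045), with an adjusted p of 0.098 when all arrays and week 8 were included. Uqcrq, a complex III subunit, differed by −0.41 ± 0.08 (adjusted p = 0.016). Sdha, the catalytic subunit of complex II, differed by −0.33 ± 0.08 (adjusted p = 0.033) and passed in 3 of 9 fits that left out a week.

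Of 30 tested genes of amino acid metabolism and the urea cycle 2 were higher in C57, against 2.41% of all genes, and none was lower. Limma gave 11 of the 30 an unadjusted p under 0.05, against 16.5% of all genes, and 22 differences were positive. The difference between these shares was not tested. Agxt, the peroxisomal enzyme that detoxifies glyoxylate, differed by 0.43 ± 0.08 (limma adjusted p = 0.0086), and its adjusted p was 0.069 with group medians. Oat, ornithine aminotransferase, averaged −0.41 ± 0.59 in A/J and 0.43 ± 0.77 in C57 (SD). The difference was 0.83 ± 0.18 (SE, limma adjusted p = 0.027), and it passed in 5 of 9 fits leaving out a week. Oat had a value on 52 A/J arrays and on 71 C57 arrays. It met the filter on measured arrays only through C57, the strain with the higher ratio. Limma called none of 44 tested cytosolic ribosomal protein genes, 7 of which had an unadjusted p under 0.05, and their median was 0.02. It also called none of 20 cytosolic chaperones (2 at an unadjusted p under 0.05), none of 12 clock genes (1) and none of 16 nuclear receptors and liver regulators (1). These counts use 1 probe per gene. The chosen probe of the chaperone Hspa1a stood at 0.02 ± 0.09, while another passed at 0.54 ± 0.13 (limma adjusted p = 0.034). The remaining Hspa1a probes lay between 0.36 and 0.48 and did not pass, so its probes disagree.

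Immune genes showed 1 call. Of 14 tested genes of histocompatibility and antigen presentation 1 was higher in C57, against 2.41% of all genes, and none was lower. This was H2-Q7, a class Ib molecule. It ran from 0.26 to 0.97 in A/J (median 0.56) and from 0.75 to 1.35 in C57 (median 0.90), a difference of 0.36 ± 0.07 (SE, limma adjusted p = 0.017). With quantile normalization it stood at 0.26 (adjusted p = 0.10). The histocompatibility genes are a polymorphic family of close copies, so this probe may also read others. H2-D1 was at 0.25 ± 0.07 (adjusted p = 0.078), and limma called none of 21 interferon response genes, 4 of which had an unadjusted p under 0.05.

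Genes with known sequence variants between these strains were looked at whatever their p. Apoa2, an HDL apolipoprotein, averaged 1.08 ± 0.34 in A/J and 1.20 ± 0.40 in C57 (SD), a difference of 0.12 ± 0.09 (SE, limma adjusted p = 0.54) that turned to −0.0039 with quantile normalization. Dysf, which encodes dysferlin and carries an insertion in A/J, averaged 0.60 ± 0.25 in A/J and 0.50 ± 0.15 in C57, a difference of −0.10 ± 0.08. Nnt, the mitochondrial transhydrogenase that is deleted in part in one C57 substrain, differed by 0.15 ± 0.15 (adjusted p = 0.67). Hc, complement C5, which carries a frameshift in A/J, had too few values for the test of levels: it was measured on 51 of 87 A/J arrays (58.6%) with a median log2 ratio of −0.64 and on 69 of 88 C57 arrays (78.4%) with a median of −0.0047. The same held for H2-Ea, a class II chain, on 59 A/J and 58 C57 arrays (medians 0.28 and 0.21), Gbp2b, an interferon-induced GTPase, on 61 and 71 (−0.34 and −0.43) and Alad, an enzyme of haem synthesis, on 41 and 27 (0.39 and 0.62). In the limma test of the share of arrays with a value none of these passed, with adjusted p-values of 0.51 for Hc, 0.95 for H2-Ea, and 0.61 for both Gbp2b and Alad.

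The labelled tissue was checked against defining markers. Of 9 tested hepatocyte markers 1 was higher in C57, Ahsg, and 2 were lower, Alb and Trf. The shares over all genes were 2.41% and 0.965%. The list's summed log2 ratio was 8.16 in A/J and 8.50 in C57. Across 29 tested markers of Kupffer cells, lymphocytes, stellate cells, endothelium, cholangiocytes, skeletal muscle, adipocytes, neutrophils and dividing cells limma called none (5 at an unadjusted p under 0.05). Their differences lay between −0.30 (Tnnc2 of muscle) and 0.22 (Cd163 of macrophages). The summed log2 ratio of the 4 Kupffer cell and macrophage markers was −0.73 in A/J and −0.61 in C57, and the members went both ways, with Cd163 at 0.22 ± 0.07, C1qc at 0.18 ± 0.08, C1qa at −0.22 ± 0.07 and Cd5l at −0.06 ± 0.11 (SE). For the 6 muscle markers the sum was −9.0 in A/J and −9.69 in C57, and 5 of the 6 differences were negative. Their part in the results was not tested. No red blood cell marker passed the filter on measured arrays, so blood content was not tested.

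**Figure D3:**
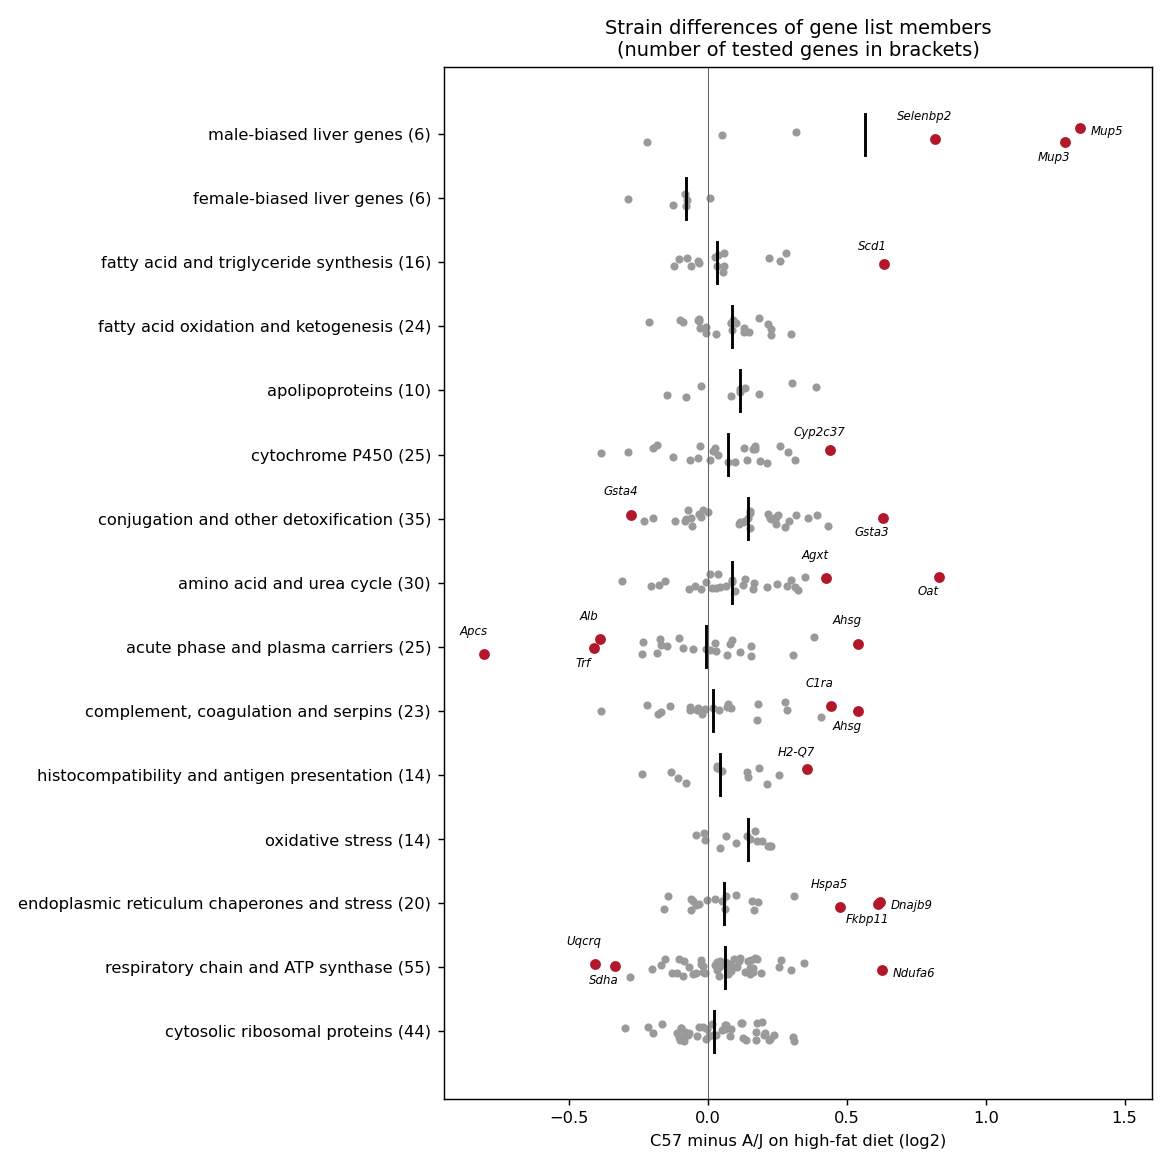
Difference in log2 ratio, C57 minus A/J on high-fat diet (horizontal axis), of each tested member of 15 gene lists (rows, with the number tested); 1 point is 1 gene, labelled points passed the limma threshold and vertical bars are list medians. The median of the 6 male-biased genes is at 0.57, and the medians of the other lists lie between −0.08 and 0.15.

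The same contrast was made on the low-fat diet to see whether the strain differences belong to the high-fat diet, with 87 C57 and 88 A/J arrays of the same weeks. Of 7507 probes that could be tested on both diets 95 passed in limma on the low-fat diet, or 1.27%, 72 higher (0.959%) and 23 lower (0.306%). Of the 270 probes past the threshold on the high-fat diet, 253 were tested on the low-fat diet. The sign was the same for 249 of them (98.4%, against 69% of all 7507), and 76 passed on both diets, which is 30% of those 253 and 80% of the 95. The low-fat difference was the smaller one for 208 of the 253, with a median ratio of low-fat to high-fat difference of 0.75. These probes were chosen by their high-fat values, so that ratio is a description. The median SE of a difference was 0.085 for the high-fat contrast and 0.095 for the low-fat one.

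The named genes followed that picture. All 10 of the 12 largest rises that were tested on the low-fat diet were higher in C57 there too, 9 of them past the limma threshold. The exception was Eola1, with a low-fat mean of −2.53 ± 0.74 in A/J and −2.53 ± 0.43 in C57 (SD, 9 weeks), a difference of 0.0031 ± 0.19 (SE). Mup3 differed by 0.83 ± 0.10 on the low-fat diet (limma adjusted p = 9.37e-04), Phlda3 by 0.84 ± 0.10 and Amigo1 by 1.02 ± 0.18. All 11 of the largest falls that were tested were lower in C57 on the low-fat diet, 7 past the threshold, and 4930565N06Rik (−1.56 ± 0.15), Lypd6b (−1.34 ± 0.14) and Ercc2 (−1.33 ± 0.13) differed by more there. Selenbp2 differed by 1.14 ± 0.12 on the low-fat diet (limma adjusted p = 3.49e-04) and Scd1 by 0.58 ± 0.15 (adjusted p = 0.076).

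A test of the difference between the diets, high-fat minus low-fat strain difference, called none of the 7507 probes in limma; 191 had an unadjusted p under 0.05 and the smallest adjusted p was 0.9995. Among the 253 probes past the threshold on the high-fat diet 27 had an unadjusted p under 0.05. These probes were chosen by their high-fat difference, which favours a gap between the diets. That count and the gaps of the genes below are therefore descriptions. The gap was 1.12 ± 0.26 for Eola1 (unadjusted p = 1.42e-04 in limma), 0.63 ± 0.21 for Phlda3 and 0.46 ± 0.17 for Mup3. It was 0.05 ± 0.27 for Scd1. None of these held after adjustment, and values that miss the threshold do not show that the diets act alike.

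**Figure D4:**
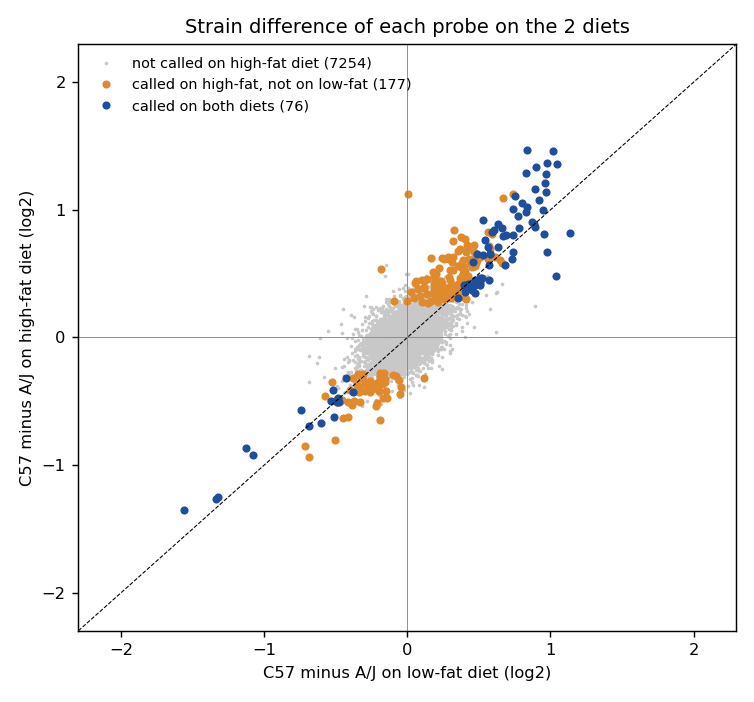
Strain difference C57 minus A/J (log2) of 7507 probes on the high-fat diet (vertical axis) against the low-fat diet (horizontal axis); orange points passed on the high-fat diet, blue points on both diets, grey points not on the high-fat diet, and the dashed line marks equal differences. Of the 253 coloured points 249 have the same sign on both diets.

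Over time on the diet the strain difference showed no trend past the threshold. A straight line through the 9 weekly differences had a slope that passed for none of 8090 probes in limma, 426 of which had an unadjusted p under 0.05, with a smallest adjusted p of 0.69. At week 0, where 10 arrays of each strain carry a high-fat label, 188 of the probes past the threshold had at least 3 values in each strain. Their sign at week 0 was that of the later weeks for 160 (85.1%), against 55.9% of 5221 probes measured as often. Mup3 stood at −0.72 ± 0.37 in A/J and 1.01 ± 0.53 in C57 at week 0 (SD, 10 arrays each), and Scd1 at 0.20 ± 0.44 (8 arrays) and 0.32 ± 0.57 (9 arrays). All 11 of the 12 largest rises with enough week 0 values were higher in C57 there, and all 8 such falls were lower.

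Some genes are measured on few arrays, so the share of arrays with a positive ratio was compared as well. Of 11760 probes limma called none at an adjusted p under 0.05, 1012 had an unadjusted p under 0.05, and 3 differed by at least 25 percentage points. The median difference was −3.33 percentage points, that is fewer arrays with a value in C57. Pgd, an enzyme of the pentose phosphate pathway, had a value on 34 A/J and 56 C57 arrays, a mean weekly share of 38.2% and 64.4%. Oas1c, of the interferon-induced oligoadenylate synthetase family, had one on 22 and 43 arrays (25% and 50%), with a median log2 ratio where measured of 0.91 and 2.62. Thrsp, a regulator of lipogenesis, had one on 45 and 65 arrays (51.2% and 74.4%), and its median log2 ratio where measured was −0.53 in A/J and 0.26 in C57. Gpm6b, a neural membrane protein, was measured more often in A/J (63.7% against 37.5%).

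Genes with several probes give a check within the array. Eif4a2, a translation initiation helicase, was spotted many times: all 9 of its tested probes were higher in C57 and past the limma threshold, by 0.56 to 1.28. For 17 genes past the threshold 25 further probes could be tested; 18 had the same sign as the chosen probe and 9 also passed, all but 1 of them for Eif4a2. For 6 of the 17 genes at least 1 further probe had the opposite sign. These counts take only genes whose chosen probe passed. In Cracd, Dock8, Entpd7, Hspa1a, Resf1, Rgs5, Ttll10 and Vps35l another probe passed and the chosen one did not. Dock8 stood at 0.0013 by the chosen probe and 1.10 by the other, and Cracd at −0.30 and 0.39. By gene order in the RefSeq table, 13 neighbouring pairs of tested genes were both past the threshold, 5.73% of the 227 called genes with a tested neighbour after them, against 3.38% of all genes tested. The members of 8 pairs had the same sign, Mup5 and Mup3 among them, and Pias3 (1.36) and its neighbour Nudt17 (−0.29) had opposite signs.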

How the data were processed

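Liver and reference RNA were hybridised as Cy5 and Cy3 to 2-colour arrays, per the labels' protocols. The deposited values are 1 linear ratio of liver over reference per probe and array, with a mean ratio of 1 on every array; image analysis and normalization are not given in the sources used here. Of all cells 42.4% were empty, 0.251% below 0 and 0.271% exactly 0, and these had no log2. Positive ratios were put on the log2 scale. Each array was centred on its median over the probes tested, 8090 for the high-fat contrast and 7507 for fits with the low-fat diet.

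A probe was tested if it had a value on at least 70% of the arrays and on at least 3 arrays in each of the 18 groups. Weekly group means were fitted in limma 3.58.1 (R 4.3.3) with week as a block, and p-values were adjusted by Benjamini-Hochberg over all probes tested (threshold 0.05). The share of arrays measured was fitted in the same way. A gene was represented by its probe measured on most arrays. Of 17280 probes 14711 have 1 symbol in the platform annotation and 6 have several, and 14416 were updated through Entrez IDs to the RefSeq table of GRCm38.p6. The fits were tested on simulated data.

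Named genes were the 12 largest rises and falls with 1 sign in at least 8 weeks, up to 4 members of each of 24 gene lists past the threshold, and measured known strain variants. Other list members and single genes were named after their values were seen. The members and lists were chosen with earlier results of these data known. Alternatives were other normalization, filters, units of replication and leaving out each week.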

Additional observations from a re-analysis of the deposited data

Results flagged for a closer look

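For each named gene the 9 weekly strain differences were screened for a week that stood apart from the others by Dixon's criterion, which chance meets in about 1 in 20 groups. Of 46 genes 4 met it. 4930565N06Rik differed by −2.61 at week 6, and its next largest weekly difference was −1.61. Apcs differed by −2.02 at week 10, where A/J stood at 1.21 and C57 at −0.82, and its next largest was −0.999. C1ra stood at −0.21 at week 5, and its other weeks lay at 0.32 or above. Dysf stood at −0.58 at week 5, and its next lowest week was −0.19.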

How the results depend on the processing

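The count of 270 probes on the high-fat diet was 153 with no filter but 1 array in each group, 57 of 3190 tested with all arrays and week 8 included, 836 with single arrays as replicates and no replicate block, and 170 to 224 when a week was left out. It was 691 with single arrays and the shared sample number of each week as a replicate block. These numbers gave no evidence of pairing the samples: over 81 pairs of equal number the correlation of deviations ran from −0.33 to 0.36, and 12 pairs correlated best with their own number. This cannot exclude a pairing. At week 10 the numbers start at 89 in C57 and at 91 in A/J, so equal numbers need not match there. The low-fat count of 95 was 185 with quantile normalization. The difference of Apoa2 turned to −0.0039 with quantile normalization and that of Nnt to −0.0396 with the replicate block; neither passed in any fit. Of 43 named genes past the threshold 33 passed in 9 of 9 fits that left out a week. No probe was called for diet dependence, slope or share measured in any alternative run for them. The signal over background is unknown, and probes measured on few arrays could not be compared. The causes were not tested.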

Other observations

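After the values above were seen, the arrays were asked which probes varied with Mup3 within the groups of strain and week. Values were taken as deviations from the group mean, so the strain difference itself does not enter. Of 8089 other probes, 34 correlated with Mup3 at a Pearson r of 0.5 or more and the median r was 0.018. Of these 34, 23 were among the 195 other probes higher in C57, 1 among the 74 lower in C57 (Trf, r = 0.54) and 10 among the 7820 that did not pass.

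Of the 23 other genes with the largest strain differences, 7 had r above 0.5, all of them higher in C57. Mup5 varied with Mup3 at r = 0.80 (Spearman's rho = 0.78, r = 0.79 without the 2 farthest arrays, 173 arrays). Phlda3 had r = 0.78 (rho = 0.78, 0.80 without them), Tbx20 0.73 (0.70, 0.72) and Fshb 0.72 (0.71, 0.71). Osbpl7 had r = 0.66 (0.61, 0.66), Amigo1 0.63 (0.66, 0.62) and Pias3 0.58 (0.56, 0.58). For these 7 the permutation p within groups was 1e-05, the smallest that 100000 resamples can give, and 3.29e-05 after adjustment over the 23 relations. Slc28a3, the gene with the largest difference, had r = 0.34 (permutation p adjusted to 0.0025). Of the genes lower in C57, Gfod2 had r = 0.28 (0.0011) and Tsks r = 0.22 (0.0065), so some of these also varied with Mup3 in the same direction. The permutation took the arrays of a group as interchangeable. They may share mice and hybridisation days, so these p-values may be too small. Whether these values reflect the probes, the arrays or the mice was not tested.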
